A study of Arabidopsis thaliana with 15 samples.

Results

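Loss of the transcription factors PIF4 and PIF5 was set against loss of the UV-B photoreceptor UVR8 in Arabidopsis thaliana seedlings that had not received UV-B. The members are the 3 libraries of pif4-101 pif5-1 and the 3 libraries of uvr8-6 grown in white light, chosen by their column labels, and they make up 6 of the 15 libraries of the series. The pif4-101 pif5-1 double mutant and the uvr8-6 mutant were both 4-day-old seedlings in the Col-0 background, kept in low white light and sampled whole, with 30 seedlings to a sample. Wild type Col-0 in white light and wild type after 6 h of UV-B added to white light, with 3 libraries each, served as further points of reference, and uvr8-6 under UV-B entered only the estimate of spread. According to the series design each replicate was grown on its own plate, so the p-values measure the spread between plates. The series asks which changes of the UV-B response resemble genes misexpressed without PIF4 and PIF5. The white-light contrast of both mutants can be set beside that response without the wild-type white-light libraries that the response itself needs. A call in the contrast does not say which mutant moved.

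PIF4 and PIF5 are basic helix-loop-helix (bHLH) transcription factors that promote the elongation of hypocotyls and petioles. They bind the G-box and related E-box motifs of growth genes, among them genes of auxin synthesis and response, and phytochrome B in its light-activated form inhibits them and leads to their breakdown. PIFs are also known to repress chlorophyll synthesis and photosynthesis genes in dark-grown seedlings. UVR8 dimers split into monomers on absorbing UV-B, bind the E3 ligase COP1 and stabilise the transcription factor HY5. UV-B through UVR8 is known to lower PIF4 and PIF5 protein and to restrain elongation. Without UV-B the photoreceptor stays a dimer. In white light edgeR's quasi-likelihood test called 3 genes (0.0144% of those tested) between uvr8-6 and wild type. These were UVR8, MRD1 and HEI10, all lower in uvr8-6. Of 20833 tested genes, 415 had an unadjusted p under 0.05, fewer than that threshold would give with no difference at all.

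Upstream sequences are shown for the 5 called members of a list of PIF target and shade avoidance genes with the lowest p within that list. Each is the 250 bases before the annotated start of the gene in the RefSeq annotation of TAIR10.1, written 5′ to 3′ on the strand of the gene. Capitals mark a G-box (CACGTG) or a PIF-binding E-box, searched as CACATG and CATGTG. The G-box is its own reverse complement and the E-box pair are reverse complements of each other, so that both strands were covered.
IAA19: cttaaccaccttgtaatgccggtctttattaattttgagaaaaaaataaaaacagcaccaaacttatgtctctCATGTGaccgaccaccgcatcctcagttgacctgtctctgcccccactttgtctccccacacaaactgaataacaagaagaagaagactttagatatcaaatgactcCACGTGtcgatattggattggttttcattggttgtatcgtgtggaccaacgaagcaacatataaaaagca
PIL1: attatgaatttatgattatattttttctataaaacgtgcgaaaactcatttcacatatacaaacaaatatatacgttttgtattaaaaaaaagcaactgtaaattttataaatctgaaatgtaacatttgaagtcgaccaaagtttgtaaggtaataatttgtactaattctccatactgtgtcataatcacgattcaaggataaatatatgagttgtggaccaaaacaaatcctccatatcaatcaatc
BR6OX2: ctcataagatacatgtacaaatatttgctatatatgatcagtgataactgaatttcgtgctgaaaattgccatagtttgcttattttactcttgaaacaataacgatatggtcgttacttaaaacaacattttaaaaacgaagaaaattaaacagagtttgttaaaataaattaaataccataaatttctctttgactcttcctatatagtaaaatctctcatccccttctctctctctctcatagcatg
BEE1: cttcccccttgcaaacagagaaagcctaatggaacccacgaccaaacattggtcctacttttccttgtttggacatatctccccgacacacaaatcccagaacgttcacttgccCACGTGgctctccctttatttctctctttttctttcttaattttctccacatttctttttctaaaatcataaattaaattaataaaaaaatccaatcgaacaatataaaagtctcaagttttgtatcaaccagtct
ST2A: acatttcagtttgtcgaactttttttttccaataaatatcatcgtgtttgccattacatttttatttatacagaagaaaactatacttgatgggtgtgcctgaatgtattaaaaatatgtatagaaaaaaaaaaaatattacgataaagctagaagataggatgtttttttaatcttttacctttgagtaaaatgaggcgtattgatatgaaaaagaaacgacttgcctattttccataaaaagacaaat
IAA19 (chr3:5263751-5264000, plus strand) has an E-box at 177 and a G-box at 70 bases before the start, and BEE1 (chr1:6331148-6331397, plus strand) has a G-box at 136 bases. None of these letters occur in the windows of PIL1 (chr2:19297859-19298108, minus strand), BR6OX2 (chr3:11810476-11810725, plus strand) and ST2A (chr5:2176447-2176696, minus strand), which says nothing of binding elsewhere. Over all tested genes with such a window, 7.35% held a G-box and 11.2% an E-box. Among genes that were lower in pif4-101 pif5-1 the shares were 7.05% and 15.7%, and among those that were higher 7.84% and 10.6%. In the 1000 bases before the start, an E-box stood in 45.1% of windows of genes that were lower, in 37.6% of those that were higher and in 38.2% of all, and a G-box in 17.4%, 17.2% and 15.9%. Among called genes that changed at least 2-fold, an E-box stood in 18.7% of the 250-base windows of 433 that were lower. It stood in 16.5% of those of 121 that were higher. The shares in the 1000 bases were 51.3% and 42.1%. A match is a description of the sequence and not a site that was shown to be bound.

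The libraries held 23.4 to 30.4 M reads in pif4-101 pif5-1 and 23.2 to 26.1 M in uvr8-6, against 19.3 to 30.4 M over the series, and 20833 genes passed the filter on low counts. The first principal component of the white-light libraries took 37.4% of the variance and put pif4-101 pif5-1 at -54.9, -25.6 and -34.5, uvr8-6 at 28.8, 8.87 and 30.2 and wild type at 26.9, 0.777 and 19.6. Replicate 2 of uvr8-6 stood apart from the other replicates of its group, and replicate 2 of wild type stood apart in the same way. FRO5, a ferric-chelate reductase gene of the copper response, had 0.621, 1.2 and 0.881 CPM in pif4-101 pif5-1, against 0.34, 78.7 and 0.115 CPM in uvr8-6, with 0.209, 58.4 and 0.489 CPM in wild type. Over the 21 PIF target and shade avoidance genes, uvr8-6 replicate 2 was the lowest of its group for 20. Larger shifts of a count without this library are given beside it.

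The targeted genes were examined first, and levels are in CPM, which are read counts scaled to the normalised library size. PIF5, named PIL6 in the name table, had 4.66, 4.92 and 5.46 CPM in pif4-101 pif5-1, against 94.4, 64.2 and 102 CPM in uvr8-6, and a log2 fold change of -4.11 ± 0.22 (SE, adjusted p = 1.89e-07). Its libraries did not overlap between the mutants, and wild type had 112, 77.1 and 136 CPM. UVR8 had 97.1, 96.5 and 94 CPM in pif4-101 pif5-1, against 18.3, 13.8 and 19 CPM in uvr8-6, a log2 fold change of 2.49 ± 0.13, with 109, 82.9 and 105 CPM in wild type. PIF4 had 82.9, 79.4 and 99.97 CPM in pif4-101 pif5-1, against 143, 59.8 and 153 CPM in uvr8-6. These libraries overlapped, since uvr8-6 replicate 2 lay below all those of pif4-101 pif5-1, and the log2 fold change of -0.44 ± 0.39 was not called (adjusted p = 0.537). The pif4-101 allele cannot be checked in this way, because reads outside a lesion enter the total for the gene. Of the other PIF family genes PIF8 was called, with 29.5, 31.9 and 31.4 CPM in pif4-101 pif5-1, against 41.6, 42.5 and 46.8 CPM in uvr8-6 and a log2 fold change of -0.50 ± 0.11, while PIF1, PIF3, PIF6 and PIF7 were not.

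**Figure D1:**
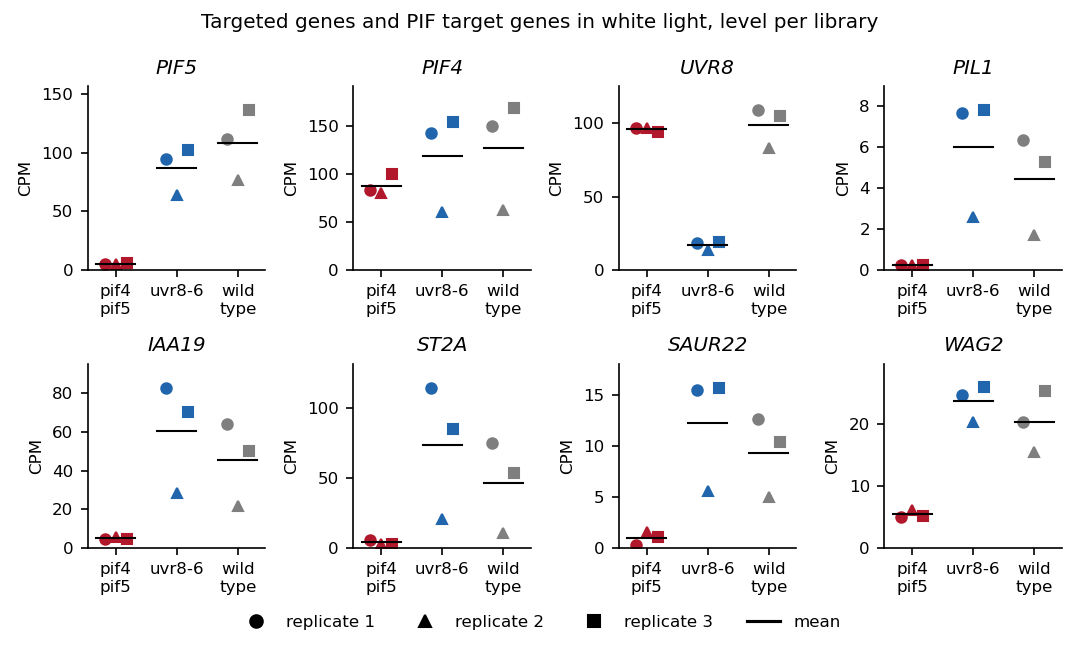
CPM in each white-light library for the targeted genes and 5 growth genes, with pif4-101 pif5-1 in red, uvr8-6 in blue, wild type in grey, symbols for the replicate number and a line at the mean of 3. For PIL1, IAA19, ST2A, SAUR22 and WAG2 all pif4-101 pif5-1 libraries lie below all others, and the triangles, replicate 2, are the lowest of uvr8-6 and of wild type.

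Growth genes were lower and greening genes higher in pif4-101 pif5-1 than in uvr8-6. EdgeR called 2406 of 20833 genes (11.5%) at an adjusted p under 0.05, of which 1073 rose (5.15% of genes tested) and 1333 fell (6.4%) in pif4-101 pif5-1. The decreases were larger: the median log2 fold change was 0.54 among the called genes that rose and -0.75 among those that fell, against -0.004 over all genes, and 121 rose but 433 fell by at least 2-fold. Library values did not overlap between the mutants for 1063 genes that rose and 1319 that fell, and over all 20833 genes for 13.9% in the higher and 14.3% in the lower direction. Without uvr8-6 replicate 2 edgeR called 2123 genes, 963 higher and 1160 lower. Other single libraries moved the count further, with 1302 calls without pif4-101 pif5-1 replicate 1, 1287 without its replicate 3, 1315 without uvr8-6 replicate 1 and 1133 without uvr8-6 replicate 3. Against wild type in white light, which is a comparison with the same pif4-101 pif5-1 libraries, 358 genes rose (1.72%) and 737 fell (3.54%).

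Most members of a list of known PIF target and shade avoidance genes fell. Like the other lists, it was chosen with earlier results of these data known. Its counts therefore describe the chosen members and are no independent test. All 21 tested members of the PIF target and shade avoidance list had a negative log2 fold change, with a median of -1.30. Of the 21, 13 fell (61.9%, against 6.4% of all genes). PIL1, a bHLH gene induced within minutes by shade, had 0.222, 0.225 and 0.237 CPM in pif4-101 pif5-1, against 7.64, 2.58 and 7.77 CPM in uvr8-6, a log2 fold change of -4.68 ± 0.58 (adjusted p = 0.000305). IAA19, an Aux/IAA repressor gene of auxin signalling, had 4.34, 5.51 and 4.71 CPM in pif4-101 pif5-1, against 82.8, 28.5 and 70.2 CPM in uvr8-6, a log2 fold change of -3.63 ± 0.45. In both genes each pif4-101 pif5-1 library lay several-fold below the lowest uvr8-6 library. ST2A, which encodes a sulfotransferase of hydroxyjasmonate, had 5.85, 3.04 and 2.47 CPM in pif4-101 pif5-1, against 114, 20.8 and 85.04 CPM in uvr8-6, a log2 fold change of -4.30 ± 0.70. IAA29, another Aux/IAA gene, had 1.91, 1.84 and 1.999 CPM in pif4-101 pif5-1, against 28.5, 8.12 and 28.5 CPM in uvr8-6. The groups did not overlap in ST2A or IAA29, and replicate 2 was the low point of uvr8-6 in each. HFR1, whose atypical bHLH protein binds PIFs and blocks them from DNA, fell too, with 5.05, 11.6 and 7.12 CPM in pif4-101 pif5-1, against 27.4, 16.7 and 29.3 CPM in uvr8-6 and a log2 fold change of -1.62 ± 0.35. Among the homeodomain-leucine zipper genes of shade avoidance HAT2 (-1.39 ± 0.31) and HAT1 (-0.86 ± 0.23) fell by the log2 values given, while ATHB2 (-1.30 ± 0.60), ATHB4 (-1.47 ± 0.64) and HAT3 (-0.71 ± 0.27) were not called. ATHB2 had 20.2, 18.01 and 17.4 CPM in pif4-101 pif5-1, against 66.2, 13.2 and 57.5 CPM in uvr8-6, and its uvr8-6 replicate 2 lay below every pif4-101 pif5-1 library. FHL, a gene for nuclear import of phytochrome A, changed by -1.30 ± 0.33, and CKX5, a cytokinin oxidase gene, by -1.80 ± 0.45. Of the 16 alternatives, HAT2 kept its call in 14, HAT1 in 11, FHL in 12 and CKX5 in 13. The list summed to 409, 412 and 416 CPM in pif4-101 pif5-1, against 1024, 529.7 and 939 CPM in uvr8-6. Without uvr8-6 replicate 2 16 of the 21 fell, and over all alternatives 8 to 16. These are whole seedlings, in which fewer cells of a type and less RNA per cell cannot be told apart.

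Among small bHLH cofactors that release or block growth, 5 of 11 tested members fell (45.5%, against 6.4% of all genes), with a list median of -0.57. PRE3 had a value of 1.04 ± 0.42 that was not called. BEE1, a brassinosteroid-induced activator of growth, had 3.15, 3.75 and 3.56 CPM in pif4-101 pif5-1, against 17.96, 8.98 and 18.4 CPM in uvr8-6, a log2 fold change of -2.11 ± 0.31. PRE1, PRE5 and PRE6, which encode helix-loop-helix proteins that sequester growth inhibitors, changed by -1.71 ± 0.33, -2.90 ± 0.62 and -0.78 ± 0.24. PRE6 kept its call in 7 of the 16 alternatives, and PRE1 and PRE5 in all 16. IBH1, which encodes such an inhibitor and so has the opposite role, fell as well, with 8.16, 11.4 and 9.49 CPM in pif4-101 pif5-1, against 31.97, 21.6 and 27.7 CPM in uvr8-6 and a log2 fold change of -1.48 ± 0.18 (adjusted p = 0.00023). For IBH1 and BEE1 the groups did not overlap.

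Auxin response genes fell in both families that were examined. In the Aux/IAA and GH3 list 13 of 19 tested genes fell (68.4%, against 6.4% of all genes), with a median log2 fold change of -0.93. IAA6 had 0.355, 0.863 and 1.02 CPM in pif4-101 pif5-1, against 21.6, 6.9 and 19.4 CPM in uvr8-6, a log2 fold change of -4.37 ± 0.67, and IAA5 changed by -3.36 ± 0.55. IAA2 had 63.7, 90.9 and 90.8 CPM in pif4-101 pif5-1, against 226, 141 and 218 CPM in uvr8-6 and IAA7 173, 258 and 227 CPM in pif4-101 pif5-1, against 443, 314 and 459 CPM in uvr8-6, with log2 fold changes of -1.25 ± 0.21 and -0.89 ± 0.18. Of the GH3 genes, whose enzymes conjugate auxin to amino acids, GH3.5 (-1.27 ± 0.21), GH3.3 (-1.35 ± 0.36) and GH3.6 (-0.48 ± 0.13) fell. GH3.3 lost its call in edgeR without uvr8-6 replicate 2 (adjusted p = 0.115). Of the 16 alternatives, GH3.3 kept its call in 11 and GH3.6 in 10. The SAUR list, whose proteins activate plasma membrane proton pumps, had 14 of 18 genes lower (77.8%, against 6.4% of all genes) and a median of -1.59. SAUR22 had 0.266, 1.58 and 1.05 CPM in pif4-101 pif5-1, against 15.4, 5.54 and 15.6 CPM in uvr8-6, a log2 fold change of -3.62 ± 0.57, and SAUR19 had 0.975, 1.46 and 1.69 CPM in pif4-101 pif5-1, against 13.5, 6.55 and 15.7 CPM in uvr8-6, one of -3.09 ± 0.50. SAUR19, SAUR20, SAUR22, SAUR23 and SAUR24 are near-identical neighbours that can share reads, and SAUR62 to SAUR67 are related neighbours, so that their separate values are uncertain. Depending on the alternative 10 to 15 of the Aux/IAA and GH3 genes and 11 to 15 of the SAUR genes fell.

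Auxin transport genes fell, and auxin synthesis genes gave few calls. Of 24 tested genes for both, 8 fell (33.3%, against 6.4% of all genes) and 1 rose (4.2%, against 5.15%). The median was -0.54, and 12 fell without uvr8-6 replicate 2. WAG2 and WAG1, which encode kinases that act on PIN auxin carriers, had log2 fold changes of -2.13 ± 0.23 (adjusted p = 0.00012) and -1.11 ± 0.17. In WAG2 the libraries stood at 4.88, 6.04 and 5.18 CPM in pif4-101 pif5-1, against 24.6, 20.2 and 25.9 CPM in uvr8-6, and no group overlapped the other. Among the carrier genes PIN3 changed by -0.53 ± 0.11, PIN7 by -0.68 ± 0.17, AUX1 by -0.55 ± 0.12, LAX3 by -0.56 ± 0.09 and ABCB19 by -0.58 ± 0.12. In synthesis CYP79B3 fell (-0.66 ± 0.15) and TAR2, a tryptophan aminotransferase gene, rose, with 7.05, 5.37 and 7.79 CPM in pif4-101 pif5-1, against 4.29, 4.72 and 3.77 CPM in uvr8-6. The call of TAR2 ended with a replicate block in edgeR (adjusted p = 0.0518). YUC8, which encodes a flavin monooxygenase of auxin synthesis and is a known PIF4 target, had 12.9, 15.3 and 9.76 CPM in pif4-101 pif5-1, against 35.5, 13.2 and 37.5 CPM in uvr8-6 and was not called (-1.18 ± 0.45, adjusted p = 0.111).

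Cell wall loosening genes that follow auxin and brassinosteroid fell in 10 of 29 tested cases (34.5%, against 6.4% of all genes), with a median of -0.50. The count was 6 without uvr8-6 replicate 1 or 3, 7 without pif4-101 pif5-1 replicate 1 or 3 and 9 without uvr8-6 replicate 2. XTH8, a xyloglucan endotransglucosylase gene, had 44.3, 44.2 and 48.3 CPM in pif4-101 pif5-1, against 115, 82.3 and 108 CPM in uvr8-6, a log2 fold change of -1.16 ± 0.14 (adjusted p = 0.000303). XTH17 changed by -1.84 ± 0.34, and the expansin genes EXPA8, EXPA11 and EXPB1 by -1.30 ± 0.27, -1.21 ± 0.30 and -0.70 ± 0.16. XTH4 had 583, 1318 and 991 CPM in pif4-101 pif5-1, against 2050.0, 2367 and 1978 CPM in uvr8-6, and here pif4-101 pif5-1 replicate 1 was the lowest library. The list summed to 1871, 3251 and 2554 CPM in pif4-101 pif5-1, against 4869.9, 4472 and 4689.6 CPM in uvr8-6.

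Brassinosteroid and ethylene synthesis genes that were called fell, and gibberellin genes went both ways. In brassinosteroid synthesis DWF4, which encodes the rate-limiting hydroxylase, had 22.5, 28.9 and 24.8 CPM in pif4-101 pif5-1, against 46.8, 46.3 and 51.3 CPM in uvr8-6, a log2 fold change of -0.92 ± 0.10. BR6OX1 and BR6OX2, which encode the oxidases of the last steps, changed by -1.23 ± 0.19 and -0.93 ± 0.13. Inactivation (BAS1, -0.73 ± 0.16), perception (the receptor gene BRI1, -0.41 ± 0.11) and signalling (BES1, -0.35 ± 0.10) were lower as well. In the brassinosteroid list 7 of 14 genes fell, beside 6.4% of all genes. That count was 4 without pif4-101 pif5-1 replicate 1 or 3, without uvr8-6 replicate 1 or 3 and with the 6 compared libraries alone, and BRI1 kept its call in 10 and BES1 in 6 of the 16 alternatives. For gibberellins 6 of 24 genes fell (beside 6.4% of all genes) and 2 rose (beside 5.15%). GA20OX1, an enzyme gene of the main regulated step of synthesis, had 1.24, 1.88 and 1.93 CPM in pif4-101 pif5-1, against 12.02, 6.62 and 14.6 CPM in uvr8-6, a log2 fold change of -2.70 ± 0.38. The inactivating enzyme genes GA2OX1 (-2.82 ± 0.56) and GA2OX6 (-0.69 ± 0.12) and the DELLA repressor genes RGL1 (-1.23 ± 0.18) and RGL3 (-0.95 ± 0.20) fell too, while the early synthesis genes GA3 (0.57 ± 0.08) and KAO1 (0.47 ± 0.12) rose. KAO1 kept its call in 12 of the 16 alternatives and lost it in edgeR without uvr8-6 replicate 2 (adjusted p = 0.0572). In ethylene synthesis ACS4, ACS11 and ACS6, of the ACC synthases that set the rate, fell by the log2 values -4.30 ± 0.98, -1.48 ± 0.33 and -1.42 ± 0.42. These were 3 of 8 genes (37.5%, against 6.4% of all genes), with a list median of -1.40. None of the 8 had a positive value, and the count was 0 without pif4-101 pif5-1 replicate 1, 1 without uvr8-6 replicate 3 and 5 without uvr8-6 replicate 2.

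**Figure D2:**
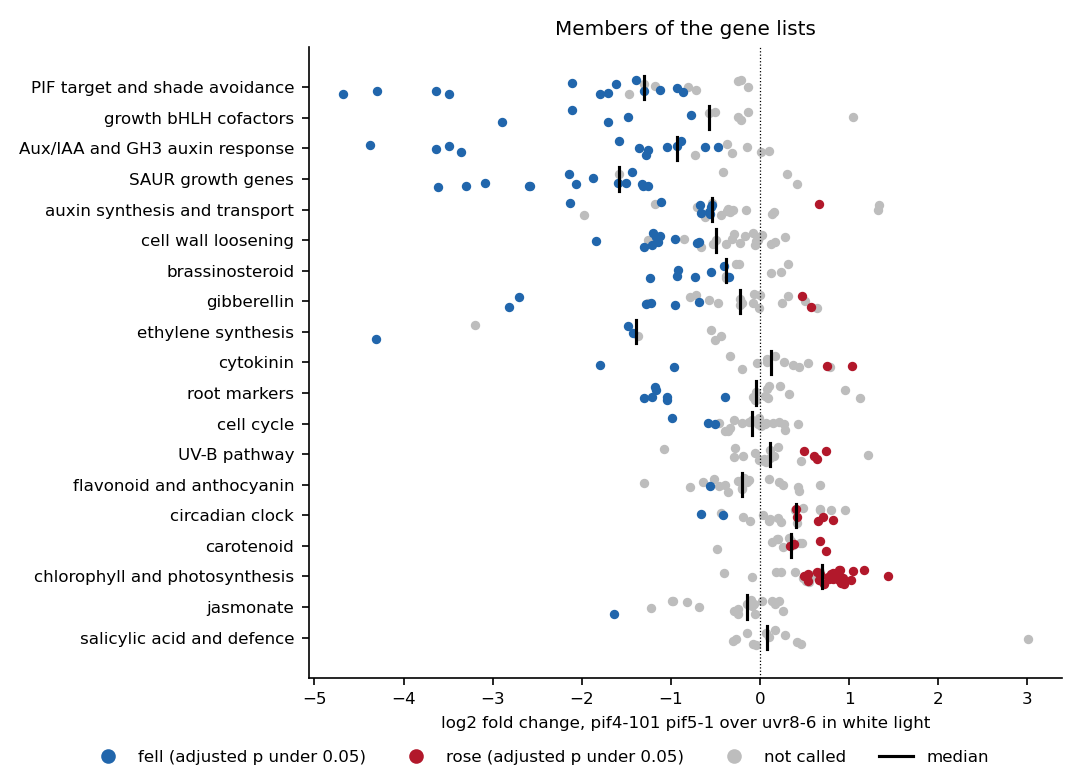
Log2 fold change of pif4-101 pif5-1 over uvr8-6 in white light for each tested member of 19 gene lists, with called genes in blue (fell) or red (rose), other genes in grey and a black line at the list's median. The growth and auxin lists lie left of 0, with medians of -1.59 for SAUR and -1.30 for PIF target genes, and chlorophyll and photosynthesis lies right of 0, with a median of 0.70.

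Chlorophyll synthesis and photosynthesis genes rose. Of 42 tested members 27 rose (64.3%, against 5.15% of all genes), 40 had a positive log2 fold change and the median was 0.70. The libraries of pif4-101 pif5-1 differed over the whole list, with replicate 2 the lowest of its group for 42 of the 42 genes and replicate 1 the highest for 31. The list summed to 157752, 127157 and 145844 CPM in pif4-101 pif5-1, against 92639, 73591 and 68443 CPM in uvr8-6, with 110169, 80837 and 91405 CPM in wild type. CGA1, a GATA factor gene of chloroplast development, had 31.9, 22.6 and 24.5 CPM in pif4-101 pif5-1, against 8.19, 10.98 and 9.96 CPM in uvr8-6, a log2 fold change of 1.43 ± 0.22. GLK1, which encodes an activator of photosynthesis genes, had 66.4, 48.2 and 60.05 CPM in pif4-101 pif5-1, against 33.4, 27.9 and 31.96 CPM in uvr8-6, one of 0.90 ± 0.13 (adjusted p = 0.00108). For both regulators all pif4-101 pif5-1 libraries were above all uvr8-6 libraries. HEMA1, the gene of glutamyl-tRNA reductase at the entry of tetrapyrrole synthesis, had 608, 524 and 598 CPM in pif4-101 pif5-1, against 329, 276 and 298 CPM in uvr8-6, a log2 fold change of 0.94 ± 0.16. Further along the pathway CHLD (0.78 ± 0.13) and CHLH (0.76 ± 0.18) of magnesium chelatase, CHLM (0.82 ± 0.13), CRD1 (0.90 ± 0.18) and CHLG (0.66 ± 0.19) rose, of which CHLG lost its call with a replicate block in edgeR (adjusted p = 0.0527). Of the light-harvesting genes LHCB1.3 (CAB1 in the name table) had 43880, 35900 and 36660 CPM in pif4-101 pif5-1, against 20360, 18690 and 12730 CPM in uvr8-6, a log2 fold change of 1.17 ± 0.30, and its near-identical copies LHCB1.1 and LHCB1.2 can share reads with it. The count moved with single libraries. It was 14 without uvr8-6 replicate 2, 6 without uvr8-6 replicate 3, 8 without pif4-101 pif5-1 replicate 1, 9 without its replicate 3, 17 with the 6 compared libraries alone and 34 with DESeq2. HEMA1, CHLD, CHLM, CRD1, GLK1 and CGA1 kept their calls in all 16 alternatives. Against wild type, edgeR called 6 of the 42 higher in pif4-101 pif5-1, beside 1.72% of all genes. In carotenoid synthesis, which feeds the same complexes, 4 of 14 genes rose (28.6%, against 5.15% of all genes). However, 1 did so without replicate 1 or 3 of either mutant or with the 6 compared libraries alone, and 3 without uvr8-6 replicate 2. The 4 were PDS3 (0.38 ± 0.10) of the desaturation step, BETA-OHASE 2 (0.75 ± 0.23), CCD1 (0.34 ± 0.10), a cleavage enzyme gene, and NPQ1 (0.68 ± 0.15), which encodes violaxanthin de-epoxidase. NPQ1 kept its call in all 16 alternatives, PDS3 and CCD1 in 10 and BETA-OHASE 2 in 9.

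Casparian strip genes of the root endodermis fell. Of 19 tested root markers 7 fell (36.8%, against 6.4% of all genes), among them CASP1, CASP4, CASP5, ESB1 and SHR. SHR kept its call in 6 of the 16 alternatives. CASP1, which encodes a scaffold protein of the strip, had 41.8, 66.3 and 67.1 CPM in pif4-101 pif5-1, against 110.3, 129 and 122 CPM in uvr8-6, a log2 fold change of -1.04 ± 0.19, and CASP5 had 11.04, 24.3 and 22.6 CPM in pif4-101 pif5-1, against 36.1, 55.8 and 43 CPM in uvr8-6, one of -1.22 ± 0.31. ESB1, a dirigent domain protein gene of lignin deposition in the strip, had 79.5, 121 and 111 CPM in pif4-101 pif5-1, against 218, 223 and 201 CPM in uvr8-6, one of -1.04 ± 0.17. No library of pif4-101 pif5-1 reached the lowest uvr8-6 library in these genes, and replicate 1 was the lowest of pif4-101 pif5-1 for 14 of the 19 root markers. Markers of root hairs and epidermis were not called, among them WER (0.23 ± 0.32), GL2 (0.08 ± 0.16), COBL9 (0.10 ± 0.22) and EXPA7 (-0.08 ± 0.32), nor were the meristem genes PLT1 and PLT2. The root list summed to 492, 768 and 704 CPM in pif4-101 pif5-1, against 879, 1056 and 862 CPM in uvr8-6. The part that root mass per seedling had in these values was not tested. Over the alternatives 5 to 7 of the list fell.

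**Figure D3:**
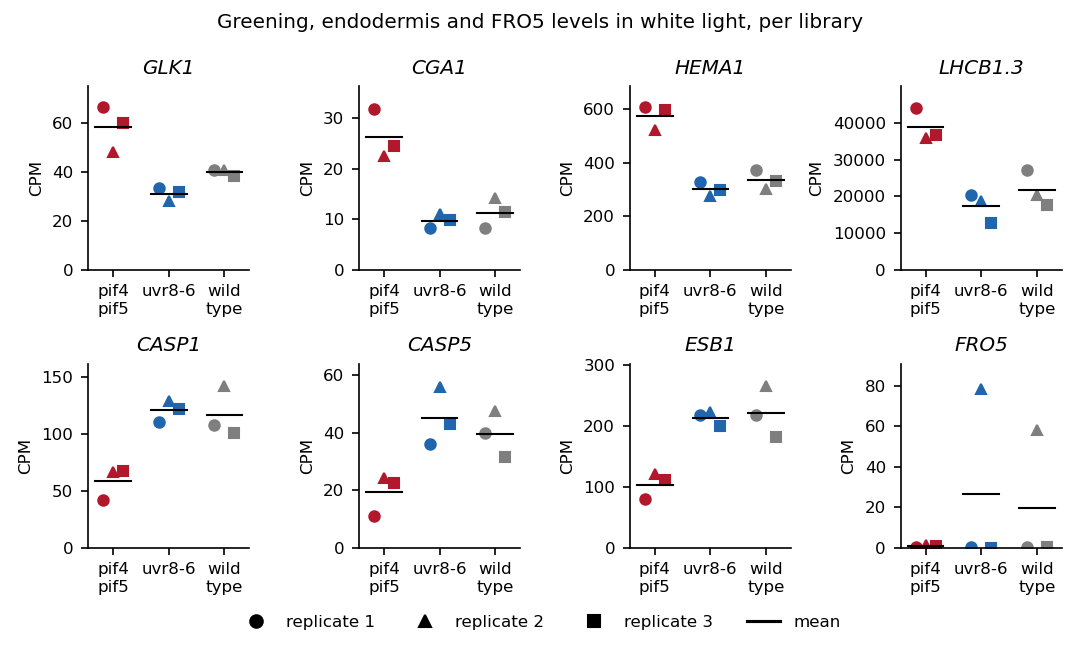
CPM in each white-light library for greening genes (upper row), Casparian strip genes and FRO5 (lower row), with pif4-101 pif5-1 in red, uvr8-6 in blue, wild type in grey, symbols for the replicate number and a line at the mean of 3. The greening genes are higher and the Casparian strip genes lower in all pif4-101 pif5-1 libraries than in all others, and FRO5 is high in replicate 2 of uvr8-6 and of wild type and near 0 in the other libraries.

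In the UV-B pathway list 4 of 19 genes rose in white light (21.1%, against 5.15% of all genes): SIG5 (0.74 ± 0.16), a plastid sigma factor gene, RUP2 (0.64 ± 0.20), a repressor of UVR8, UVR3 (0.61 ± 0.13), the (6-4) photolyase gene, and BBX25 (0.49 ± 0.10). RUP2 had 23.7, 22.9 and 20.8 CPM in pif4-101 pif5-1, against 13.8, 17.4 and 12.1 CPM in uvr8-6. RUP2 kept its call in 11 of the 16 alternatives. HY5, HYH, ELIP1 and ELIP2 were not called. Against wild type in white light, edgeR called 0 of the 19 genes in pif4-101 pif5-1 in either direction, where 1.72% of all genes rose and 3.54% fell. In the flavonoid list CHI, the chalcone isomerase gene, was the 1 called gene of 20 (5.0%, against 6.4% of all genes that fell) and fell (-0.56 ± 0.15), and that call ended without uvr8-6 replicate 2 (adjusted p = 0.114).

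Among the genes with the largest changes outside the lists, some were set apart by the uvr8-6 libraries. MRD1 had 29.5, 29.3 and 22.3 CPM in pif4-101 pif5-1, against 0.594, 0.0715 and 0.0385 CPM in uvr8-6, but 28.6, 27.1 and 21.4 CPM in wild type, so the value apart was that of uvr8-6. Replicates 2 and 3 of uvr8-6 lie under the level of 3 reads per library, so no fold is given for MRD1. HEI10, a meiotic crossover gene, had 10.2, 7.99 and 9.18 CPM in pif4-101 pif5-1, against 1.27, 1.36 and 1.42 CPM in uvr8-6, with 12.1, 8.53 and 12.2 CPM in wild type. MRD1 and HEI10 have consecutive locus numbers on chromosome 1 (AT1G53480 and AT1G53490) and UVR8 lies on chromosome 5. AT4G08093, a transcribed pseudogene on chromosome 4, was the reverse case: it had 8.91, 9.19 and 10.03 CPM in pif4-101 pif5-1, against 0.0425, 0.0358 and 0.0769 CPM in uvr8-6, with 0.365, 0 and 0.554 CPM in wild type. The uvr8-6 values of AT4G08093 lie under the level of 3 reads per library, so its fitted log2 fold change of 7.37 ± 0.60 depends on the prior count and is no measure of size. The blue-copper-binding protein gene BCB had 17.9, 47.8 and 24.9 CPM in pif4-101 pif5-1, against 5.31, 5.33 and 5.85 CPM in uvr8-6, a log2 fold change of 2.46 ± 0.36. A pair of lipid-transfer protein genes, AT4G22485 (2.54 ± 0.65) and AT4G22505 (2.80 ± 0.75), a pollen Ole e 1 family gene, AT3G16670 (2.46 ± 0.56), and a thioredoxin family gene, AT5G18600 (2.06 ± 0.44), were also higher. AT4G22485, AT4G22505 and AT2G39850, a subtilisin-like protease gene (1.53 ± 0.40), lost their calls without uvr8-6 replicate 2 (adjusted p = 0.0542, 0.0649 and 0.0678). AT4G34950, of the major facilitator superfamily, and AT2G29670, a tetratricopeptide repeat protein gene, rose by 1.72 and 1.54. On the lower side stood AT5G37950, a UDP-glycosyltransferase gene (-4.10 ± 0.42), AT4G35720, of a family with no known function (-3.62 ± 0.55), AT5G44440, a berberine bridge enzyme-like gene (-3.46 ± 0.70), AT5G35525, of the PLAC8 family (-3.35 ± 0.33), and AT3G02670, a glycine-rich protein gene (-3.34 ± 0.30). AT5G44440 had 11.3, 7.95 and 9.997 CPM in pif4-101 pif5-1, against 169, 38.1 and 116 CPM in uvr8-6.

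The contrast was then set beside the UV-B response of wild type, with which it has no library in common. UV-B raised 3354 genes (16.1% of those tested) and lowered 2346 (11.3%) in wild type. Of the 1333 genes that fell in pif4-101 pif5-1, 478 (35.9%) also fell under UV-B and 125 (9.38%) rose. Of the 1073 genes that rose, 444 (41.4%) rose under UV-B and 89 (8.29%) fell. Seen from the UV-B side, the 478 are 20.4% of the genes that UV-B lowered and the 444 are 13.2% of those it raised. Among the genes that fell by at least 2-fold 183 of 433 (42.3%) fell under UV-B as well, and among those that rose by at least 2-fold 32 of 121 (26.4%) rose. Across 20833 genes the log2 fold changes correlated with Pearson's r = 0.222 and Spearman's rho = 0.202, which describes genes of the same 12 libraries and not independent replicates. Although no library is shared, white-light replicate 2 stood apart in the same way in both reference groups. The shared genes numbered 922 in all, 911 without uvr8-6 replicate 2 and 972 without wild-type white-light replicate 2. Other libraries moved the number further, to 455 without uvr8-6 replicate 3, 525 without its replicate 1, 460 without pif4-101 pif5-1 replicate 3, 565 without its replicate 1 and 642 with the 6 compared libraries alone.

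**Figure D4:**
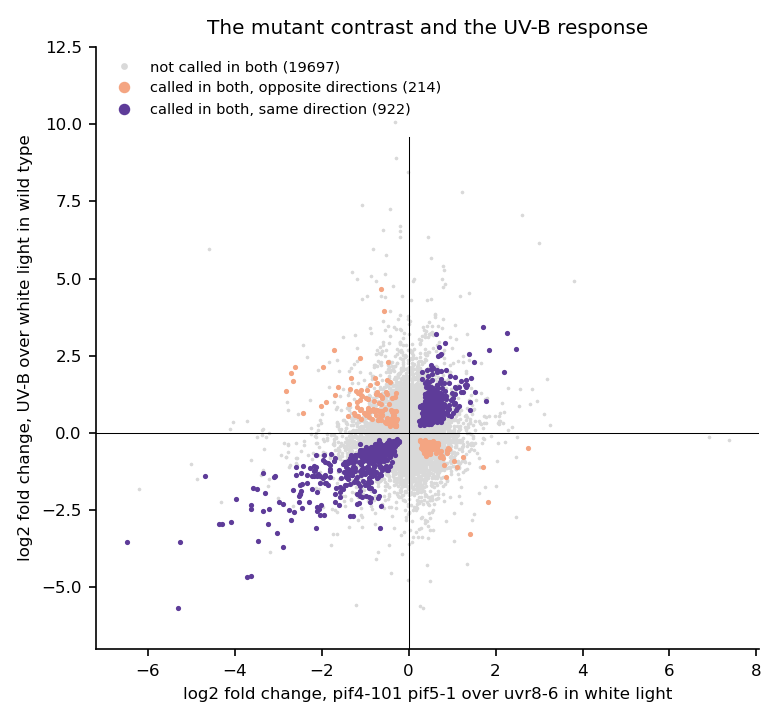
Each of 20833 genes by its log2 fold change in pif4-101 pif5-1 over uvr8-6 in white light (x axis) and in wild type under UV-B over white light (y axis), with genes called in both in the same direction in purple (922), in opposite directions in orange (214) and all others in grey. More of the genes called in both lie in the lower left and upper right than in the upper left and lower right.

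The share of list members called in the mutant contrast that UV-B also moved is given list by list. For comparison, UV-B lowered 35.9% of all genes that fell in pif4-101 pif5-1 and 11.3% of all tested genes. It raised 41.4% of all genes that rose and 16.1% of all tested genes. Of the 10 cell wall loosening genes that fell in pif4-101 pif5-1, 9 fell under UV-B, with XTH17 at -1.69 ± 0.34 and EXPB1 at -2.10 ± 0.18 on the log2 scale under UV-B. Of the 13 PIF target genes that fell 9 fell under UV-B, of the 8 auxin synthesis and transport genes 6, and of the 7 brassinosteroid genes 5. Of the 14 SAUR genes that fell 3 fell under UV-B, and SAUR22, SAUR20 and SAUR66 had UV-B values of -0.87 ± 0.49, -0.004 ± 0.34 and -0.15 ± 0.30. Some genes moved in opposite directions. BR6OX2, which fell in pif4-101 pif5-1, was raised by UV-B (0.64 ± 0.12), and so were GA2OX1 (1.37 ± 0.45), PIF8 (1.70 ± 0.11), SAUR62 (0.64 ± 0.21) and CHI (3.95 ± 0.16). ARR7, a cytokinin response regulator gene that rose in pif4-101 pif5-1 (0.75 ± 0.17), fell under UV-B (-0.59 ± 0.17). UV-B raised 14 of the 42 greening genes, and of the 27 that rose in the mutant contrast 8, among them CGA1 (1.78 ± 0.22), CHLH (1.16 ± 0.18) and HEMA1 (0.78 ± 0.16), while the antenna genes LHCB3 (0.15 ± 0.24) and LHCB1.3 (-0.21 ± 0.29) were not called there. UV-B raised 19 of the 19 UV-B pathway genes and 13 of the 14 carotenoid genes, those that rose in the mutant contrast among them, by 2.56 ± 0.16 in SIG5 and 1.25 ± 0.10 in PDS3. The root genes CASP1, CASP4, CASP5, ESB1 and SHR, which fell, were not called under UV-B, where their log2 fold changes lay between -0.46 ± 0.30 for CASP5 and 0.07 ± 0.21 for CASP4. Whether the share of any list differs from that of another was not tested.

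Outside the lists, the shared genes are those with the lowest p. MYB88, which encodes a regulator of the stomatal lineage, had 22.2, 27.1 and 26.4 CPM in pif4-101 pif5-1, against 52.7, 52.5 and 54.8 CPM in uvr8-6, with 30.1, 33.5 and 30.04 CPM in wild type under UV-B against 48.98, 45.8 and 48.3 CPM in white light. AT1G12080, annotated as a vacuolar calcium-binding protein gene, had 223, 230.3 and 203 CPM in pif4-101 pif5-1, against 1435, 1040.0 and 1216 CPM in uvr8-6, with 235, 248 and 279 CPM in wild type under UV-B against 1363, 765 and 874 CPM in white light. Both genes fell in each contrast with no overlap of libraries. The glycine-rich protein gene AT3G02670, one of the 12 largest decreases, fell under UV-B as well (-2.51 ± 0.29). Also lower in both were AT1G61260, AT1G80280, AT5G05180, AT1G64330 and AT2G14900, with log2 fold changes of -1.41 ± 0.12, -1.10 ± 0.09, -1.09 ± 0.10, -0.92 ± 0.08 and -2.10 ± 0.20 in pif4-101 pif5-1 over uvr8-6. HDR, the last enzyme gene of the plastid isoprenoid pathway, which supplies chlorophyll and carotenoid precursors, had 519.7, 489 and 529.8 CPM in pif4-101 pif5-1, against 309.7, 319 and 291 CPM in uvr8-6, a log2 fold change of 0.74 ± 0.10. Under UV-B HDR had 523, 479.9 and 594 CPM in wild type, against 353, 366 and 360.3 CPM in white light. ARC5, which encodes a dynamin-related protein of chloroplast division, had 81.5, 67.9 and 83.4 CPM in pif4-101 pif5-1, against 48.1, 45.2 and 44.5 CPM in uvr8-6, a log2 fold change of 0.76 ± 0.10, and 0.46 ± 0.10 under UV-B. Higher in both were also AT5G57345 (1.09 ± 0.11), EMB2421 (0.65 ± 0.09), AT5G44572 (1.40 ± 0.19), TBL10 (0.65 ± 0.09), the arabinogalactan protein gene AGP17 (1.17 ± 0.16) and AT2G41250 (0.74 ± 0.11).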

How the data were processed

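Per the labels' protocols, each library came from 30 whole seedlings, with 400 ng of RNA entering a stranded mRNA kit and single-end sequencing of 100 bp. The submitters' processing notes list the build TAIR10 and, as tools, HTSeq 0.9.1, edgeR 3.22.3, STAR 2.5.3a and FastQC 0.11.5. Their roles and the strand setting of the counting are not given in the sources used here, so reads of overlapping genes cannot be told apart. The deposited table holds raw counts of reads per gene and library, which the authors neither scaled nor pooled. Their normalized table was not used.

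From the counts, filterByExpr on the 5 groups kept 20833 genes. Libraries were scaled by TMM, and all 15 libraries entered 1 model of group means (10 residual degrees of freedom), so that the wild-type white-light libraries entered the spread but not the fold change. Contrasts were tested two-sided by quasi-likelihood F tests (edgeR 4.0.16, R 4.3.3), with adjustment by Benjamini-Hochberg over all tested genes and calls at an adjusted p under 0.05. The error given with a log2 fold change is its standard error. A gene without reads is bounded by 3 reads per library, and counting error alone is covered by that bound.

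Named genes were the targeted genes, called list members, per direction the 12 called genes of largest change whose libraries did not overlap and whose higher group had 5 CPM or more, and the 8 per direction with the lowest p among those that UV-B moved alike. MRD1, HEI10 and FRO5 are also singled out because their values stood apart, and list members that were not called are named for their role. Members, comparisons and the 25 lists (450 loci, 425 tested, 7 names unmatched, and 2 names, CAO and SAUR21, dropped because their locus in the name table is annotated as another gene) were chosen with earlier results of these data known. Names, products and sequences came from RefSeq's TAIR10.1 tables, in which 32835 of 33602 rows were matched. Its coordinates are those of that annotation, not of the counting.

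Deviations from the group mean correlated between equal replicate numbers of pif4-101 pif5-1 and uvr8-6, with r = 0.157, 0.187 and 0.142 for replicates 1, 2 and 3, all above 0.1. Between unequal numbers r lay between -0.164 and 0.0585. The labels do not say whether a number marks a shared batch, so a replicate block was fitted only as an alternative. A pairing by number rests on these deviations alone, which sum to 0 within a group. The fit without a replicate block is the main one, and its p-values take the libraries as unpaired. Alternatives were other scalings and filters, DESeq2 1.42.0, limma-voom (limma 3.58.1), fewer libraries in the fit, the replicate block and each library left out. The scripts were tested on simulated counts.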

Additional observations from a re-analysis of the deposited data

How the results depend on the processing

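Every alternative that gave a value kept the direction of the 168 called genes that are named or listed (16 alternatives, 15 for SAUR9 and CYCA2;1, which the filter of 1 CPM removed), and 97 kept their call in each; the other 71 lost it in at least one fit that left out a library. The number of called genes (2406) was 1442 with the 6 compared libraries alone (610 higher, 832 lower), where 294 genes were shared upwards with UV-B. DESeq2 shared 673 genes upwards and called 3161 in all. With the replicate block edgeR called 2783 genes in the fit of 15 libraries, which ended the calls of SAUR65, TAR2, XTH19, GA20OX2, CHLG and CYCA2;1, and 1639 in the fit of 6 libraries, of which 678 were higher. Without a single library the calls ranged from 1133 to 2942 (483 to 1446 higher, 650 to 1496 lower) and the genes shared with UV-B from 455 to 1152 (281 to 517 lower, 151 to 646 higher). Without uvr8-6 replicate 3 the counts were the lowest for calls, and without pif4-101 pif5-1 replicate 2 the highest. The share of calls that were higher lay between 38.7% and 52.7%, and no scaling moved it by more than 10 percentage points. The cause of these shifts was not tested beyond what each fit leaves out. With 3 libraries a group, the calls of single greening genes rest on few libraries, and genes under the level of 3 reads have no measured fold.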

Other observations

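Clock genes, which set the daily phase of growth, were examined as a further list. Of 22 tested clock genes 5 rose (22.7%, against 5.15% of all genes) and 2 fell (9.1%, against 6.4%) in pif4-101 pif5-1 over uvr8-6 by edgeR's quasi-likelihood test. The median log2 fold change was 0.40, and 2 to 9 rose depending on the alternative, with 3 without uvr8-6 replicate 2. CCA1, which encodes a MYB-like factor of the morning, had 254, 228 and 222 CPM in pif4-101 pif5-1, against 146, 126 and 159.5 CPM in uvr8-6, a log2 fold change of 0.70 ± 0.13. LNK2, which encodes a coactivator in the same loop, had 1072, 1038 and 1029 CPM in pif4-101 pif5-1, against 593, 521 and 663 CPM in uvr8-6, one of 0.82 ± 0.16. Both kept their calls in all 16 alternatives, and no library of one mutant reached those of the other. The genes that fell act in the evening: BOA changed by -0.66 ± 0.13 and ELF3, a known brake on PIF4 transcription, by -0.42 ± 0.11. ELF3 kept its call in 10 of the 16 alternatives. Against wild type in white light, edgeR called 0 of the 22 clock genes in pif4-101 pif5-1 in either direction. Over all genes in that comparison 1.72% rose and 3.54% fell. The list summed to 3040.1, 3060.3 and 3059.7 CPM in pif4-101 pif5-1, against 2160.3, 2094.3 and 2319.0 CPM in uvr8-6, with 2345, 2587 and 2787 CPM in wild type. The labels give continuous light and no hour of harvest for each group, and the part of harvest time in these values was not tested.

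In the cytokinin list 2 of 16 genes rose (beside 5.15% of all genes) and 2 fell (beside 6.4%). Against wild type in white light, edgeR called 5 of the 16 higher and 1 lower in pif4-101 pif5-1. Over all genes in that comparison 1.72% rose and 3.54% fell. CRF2, a cytokinin response factor gene, had 24.8, 16.02 and 17.4 CPM in pif4-101 pif5-1, against 10.7, 7.91 and 9.77 CPM in uvr8-6, a log2 fold change of 1.03 ± 0.18. The oxidase gene CKX6 changed by -0.96 ± 0.27 and kept its call in 9 of the 16 alternatives. Of 21 cell cycle genes 3 fell (14.3%, against 6.4% of all genes), among them the mitotic cyclin gene CYCB1;4 at -0.58 ± 0.14, but 0 did so without replicate 3 of either mutant or with the 6 compared libraries alone, and 1 without replicate 2 of either. The cell cycle list summed to 290.2, 166.2 and 195.6 CPM in pif4-101 pif5-1, against 221.5, 244.9 and 224.2 CPM in uvr8-6, and pif4-101 pif5-1 replicate 1 was the highest of its group for 21 of the 21 genes. Of 19 jasmonate genes VSP2, a storage protein gene, fell (5.3%, against 6.4% of all genes; -1.64 ± 0.48), with 3.15, 4.76 and 7.96 CPM in pif4-101 pif5-1, against 15.6, 10.9 and 23.5 CPM in uvr8-6. VSP2 kept its call in 11 of the 16 alternatives. Among 14 photoreceptor genes ZTL (0.26 ± 0.08) rose beside UVR8, 2 genes in all (14.3%, against 5.15% of all genes). ZTL kept its call in 7 of the 16 alternatives. BBX25 was the 1 called gene of 17 B-box genes (5.9%, against 5.15% of all genes that rose). EdgeR called 0 of 22 copper and iron supply genes, with 3 at an unadjusted p under 0.05, while DESeq2 called 2 higher and limma-voom 0. Over all 20833 genes edgeR called 11.5%, and 5398 had an unadjusted p under 0.05. It called 0 of 12 salicylic acid and defence genes and 0 of 9 seed and embryo genes, with 0 at an unadjusted p under 0.05 in either list and 0 by DESeq2 and limma-voom.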
